A study of Mus musculus with 20 samples.

Results

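The receptors for the constant region of immunoglobulin G were followed in mouse hippocampus through 5 genes, the 4 Fc gamma receptor genes *Fcgr1*, *Fcgr2b*, *Fcgr3* and *Fcgr4* and the gene of their shared signalling chain, *Fcer1g*. The members were chosen by gene symbol, and all 5 were found among the 39056 genes counted and passed the filter on low counts that left 16107 genes for testing. The RNA came from the left hippocampus of 20 female C57BL/6 mice in 4 groups of 5 that had entered behavioural testing at 12 months of age and were perfused with PBS before dissection. Tg-SwDI mice carry human amyloid precursor protein with the Swedish, Dutch and Iowa mutations under the neuronal Thy1 promoter, and Non-Tg mice lack it. MiR-34a KO mice (miR34a-/-) lack the microRNA constitutively in every cell of the body, and WT mice (miR34a+/+) carry it. The groups are therefore WT Non-Tg, KO Non-Tg, WT Tg-SwDI and KO Tg-SwDI, and they were compared to ask how the transgene and the loss of miR-34a, alone and together, alter hippocampal mRNA. Libraries held 19549622 to 21066868 counted reads.

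Fc gamma receptors bind antibody-coated particles and immune complexes on phagocytes, and in the brain they are carried mainly by microglia and by macrophages at its borders. FcγRI (*Fcgr1*), FcγRIII (*Fcgr3*) and FcγRIV (*Fcgr4*) activate the cell and need the FcRγ chain (*Fcer1g*), whose immunoreceptor tyrosine-based activation motif (ITAM) is phosphorylated by Src family kinases and recruits Syk. FcγRIIB (*Fcgr2b*) is the inhibitory receptor of the family. It carries its own inhibitory motif, recruits the lipid phosphatase SHIP1 and sets the threshold at which the activating receptors fire.

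*Fcer1g*, *Fcgr2b*, *Fcgr3* and *Fcgr4* lie close together on mouse chromosome 1 and *Fcgr1* on chromosome 3. In the mm10 build, *Fcgr2b* (ENSMUSG00000026656.15) spans chr1:170958617-170976547, *Fcgr4* (ENSMUSG00000059089.4) chr1:171018920-171029761, *Fcgr3* (ENSMUSG00000059498.13) chr1:171051174-171064935 and *Fcer1g* (ENSMUSG00000058715.11) chr1:171229572-171234365. *Fcgr1* (ENSMUSG00000015947.10) spans chr3:96282909-96293969. *Fcgr4* is on the plus strand and the other members are on the minus strand. *Fcgr2b* and *Fcgr3* share sequence, since 9.58% of the 50-base stretches in *Fcgr3* exons also occur in *Fcgr2b* exons, against 2.54% of its 100-base stretches. Seen from *Fcgr2b* the shares were 2.92% and 0.75%. The split of reads between these genes is uncertain, by an amount that depends on the read length. *Fcgr2b* also shares 2.68% of its exonic bases with an antisense gene, Gm38204.

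Known control sequences of myeloid and interferon-responsive genes were searched on both strands of the RefSeq promoters of the members (GRCm38, 250 bases before to 50 bases after the start site). They were GAGGAA, the core site of the myeloid factor PU.1, TTCNNNGAA, the gamma-activated sequence (GAS) of genes that respond to interferon-gamma, and the interferon-stimulated response element (ISRE). Of all 32851 RefSeq promoter windows of this length, 28.3% held the PU.1 core, 8.3% the GAS and 3.4% the ISRE. The 150 bases before the start site are printed for the 3 activating receptors, which held matches, 5′ to 3′ on the strand of the gene with the matched letters in capitals. The PU.1 core reads TTCCTC and the ISRE reads as its complement where the match is on the other strand, and no match overlapped another.
Fcgr1 (chr3:96293970-96294119, minus strand): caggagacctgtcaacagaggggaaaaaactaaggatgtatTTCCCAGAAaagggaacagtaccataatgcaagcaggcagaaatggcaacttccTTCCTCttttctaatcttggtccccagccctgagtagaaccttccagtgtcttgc
Fcgr3 (chr1:171059404-171059553, minus strand): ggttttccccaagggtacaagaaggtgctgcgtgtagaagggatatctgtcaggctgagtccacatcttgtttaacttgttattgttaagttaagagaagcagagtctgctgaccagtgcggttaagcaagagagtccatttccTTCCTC
Fcgr4 (chr1:171018776-171018925, plus strand): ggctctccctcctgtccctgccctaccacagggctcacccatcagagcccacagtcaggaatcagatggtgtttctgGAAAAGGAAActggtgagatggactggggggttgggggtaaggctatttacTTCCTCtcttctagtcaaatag

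*Fcgr1* thus held a GAS at -109 and a PU.1 core at -55 from the start site, *Fcgr4* an ISRE at -73 and a PU.1 core at -22, and *Fcgr3* a PU.1 core at -6. *Fcgr3* has another RefSeq start site, not printed, from which the same core lies at -15. The windows of *Fcgr2b* and *Fcer1g* held none of these letter strings, which says nothing of binding elsewhere in either gene.

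A match to the seed of miR-34a-5p, the bases 2 to 8 with which a microRNA pairs to its targets, was looked for in the 3′ untranslated regions of the members. The mature microRNA is shown with its seed in capitals, and the lone match among the members, in *Fcgr2b*, with the complementary bases in capitals.
mmu-miR-34a-5p (chr4:150068473-150068494, plus strand): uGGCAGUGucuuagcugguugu
Fcgr2b 3′ untranslated region (chr1:170960785-170960814, minus strand): tctgctatcgatccaCACTGCCactaaaat

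This site lies at position 215 of the region in 3 of the 4 coding transcripts of *Fcgr2b*. A match of this kind, or a shorter seed match followed by an A, was counted in protein-coding genes with an annotated 3′ untranslated region. Either kind was present in 20.7% of these 21037 genes, which is an upper limit for this kind alone. The reads of miR-34a itself were not analysed here, so the deletion was not checked by the targeted gene. Thy1, whose promoter drives the transgene, was at 684.5 to 769.1 CPM (normalised counts scaled to library size) in the mice labelled Non-Tg, against 1904.8 to 3318.4 CPM in those labelled Tg-SwDI.

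Before the results, 2 features of the libraries need to be given. Choroid plexus RNA varied between libraries, with the summed level of 15 marker genes such as *Ttr* at 272.1 to 732.1 CPM in KO Non-Tg mice and spanning 308.7 to 6956.6 CPM in WT Non-Tg mice, 404.8 to 5824.3 CPM in WT Tg-SwDI mice and 420.5 to 5682.6 CPM in KO Tg-SwDI mice. The library of KO Tg-SwDI replicate 8 had the lowest normalisation factor, 0.9013, against 0.9811 to 1.0309 in the others. All 9 neuronal, 7 astrocyte and 14 microglial marker genes were measured in every group, as hippocampal tissue should show. In bulk tissue, fewer cells of a type and less RNA per cell cannot be told apart.

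All 5 genes were at their lowest mean in KO Non-Tg mice, next in WT Non-Tg mice, then WT Tg-SwDI mice, and highest in KO Tg-SwDI mice. Per kilobase of exon, *Fcer1g* was the most abundant member in every group, with a mean of 13.6 CPM per kilobase in WT Non-Tg mice and 54.0 in KO Tg-SwDI mice, and *Fcgr3* was next, with 6.99 and 22.2. *Fcgr4* was the least abundant, with 0.273 and 0.826 CPM per kilobase. The order of the middle pair changed: *Fcgr1* had a higher mean than *Fcgr2b* in Non-Tg mice (1.38 against 0.78 CPM per kilobase in WT, 1.25 against 0.745 in KO), and *Fcgr2b* was above *Fcgr1* in Tg-SwDI mice (3.78 against 2.89 in WT, 5.09 against 4.1 in KO). Mice overlapped between these neighbours in WT Non-Tg and in KO Tg-SwDI and did not in the other groups. Counted over the longest coding transcript instead of all exons, the order in Tg-SwDI mice was the same. In Non-Tg mice *Fcgr1* and *Fcgr2b* were then close, at 1.38 and 1.27 CPM per kilobase in WT and 1.25 and 1.22 in KO.

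**Figure D1:**
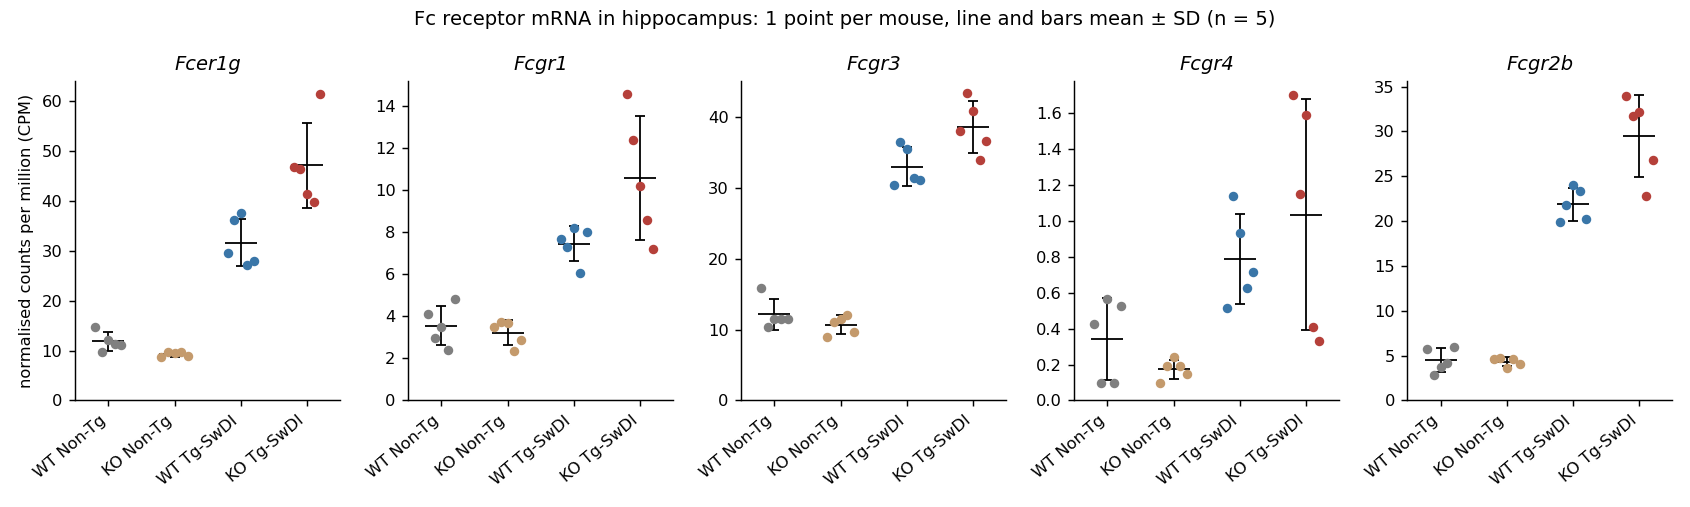
Normalised CPM of the 5 genes (vertical axes, each starting at 0) in each of the 20 mice by group, with the mean and SD of 5 mice as a line and bars. *Fcgr2b* and *Fcgr3* in Tg-SwDI mice sit above every Non-Tg mouse, *Fcer1g* in KO Tg-SwDI mice sits above every WT Tg-SwDI mouse, and *Fcgr4* is under 2 CPM in all.

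The inhibitory receptor gene rose the most with the transgene of the 4 members that passed the test in both miR-34a genotypes. In WT mice *Fcgr2b* measured 5.77, 2.88, 3.71, 4.2 and 6.01 CPM without the transgene and 19.9, 21.8, 24.0, 23.4 and 20.2 CPM with it. In KO mice it measured 4.64, 4.69, 3.62, 4.61 and 4.01 CPM without the transgene and 33.9, 31.7, 32.2, 22.8 and 26.8 CPM with it. Transgenic and non-transgenic mice were far apart in both genotypes, while the Non-Tg mice of the 2 genotypes overlapped, and so did the Tg-SwDI mice. *Fcgr2b* rose 4.83-fold with the transgene in WT mice (95% interval 3.91 to 5.97, log2 difference 2.27, SE 0.15, adjusted p = 2.66e-10, edgeR quasi-likelihood test with Benjamini-Hochberg adjustment over all 16107 genes, as for all adjusted p-values given for genes). The KO mice showed a rise of 6.82-fold (5.52 to 8.44, log2 difference 2.77, SE 0.15, adjusted p = 2.48e-12).

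*Fcer1g*, without which the activating receptors reach the surface poorly and cannot signal, had 14.8, 9.67, 12.2, 11.4 and 11.2 CPM in WT mice without the transgene, and 29.6, 36.1, 37.5, 27.2 and 27.9 CPM with it. The KO mice had 8.66, 9.72, 9.51, 9.69 and 8.9 CPM without the transgene and 46.9, 46.4, 41.3, 39.7 and 61.4 CPM with it. It is the member whose 4 groups were best separated: only the Non-Tg groups shared part of their ranges, and the 5 KO Tg-SwDI mice were all above the highest WT Tg-SwDI mouse. *Fcer1g* rose with the transgene 2.67-fold in WT mice (2.24 to 3.18, SE of the log2 difference 0.12, adjusted p = 2.92e-08) and 5.07-fold in KO mice (4.24 to 6.06, SE 0.12, adjusted p = 3.94e-12).

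*Fcgr3*, the most abundant receptor of the family here, stood at 15.9, 10.3, 11.5, 11.5 and 11.5 CPM in the Non-Tg and 30.4, 36.4, 35.4, 31.3 and 31.1 CPM in the Tg-SwDI mice of the WT genotype. Values in KO mice were 8.95, 11.1, 11.5, 12.1 and 9.63 CPM without the transgene and 38.0, 43.3, 40.8, 33.9 and 36.6 CPM with it. The lowest transgenic mouse thus stood well above the highest Non-Tg mouse. *Fcgr3* rose 2.71-fold in WT mice (2.35 to 3.12, adjusted p = 2.18e-10) and 3.62-fold in KO mice (3.13 to 4.18, adjusted p = 6.65e-13).

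*Fcgr1*, the high-affinity receptor, was found at 4.11, 2.98, 3.52, 2.4 and 4.82 CPM without and 7.7, 7.33, 8.2, 6.09 and 8.04 CPM with the transgene in WT mice. The KO mice were at 3.49, 3.75, 3.67, 2.35 and 2.9 CPM without the transgene and at 14.6, 12.4, 10.2, 8.61 and 7.21 CPM with it. The KO Tg-SwDI mice spread widely, and their lowest overlapped the WT Tg-SwDI mice. *Fcgr1* rose 2.09-fold in WT mice (1.6 to 2.73, adjusted p = 0.000446) and 3.29-fold in KO mice (2.52 to 4.28, adjusted p = 2.16e-07).

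*Fcgr4* was close to the limit of detection, with 2 to 12 reads in a WT Non-Tg library, 2 to 5 in a KO Non-Tg library, 11 to 24 in a WT Tg-SwDI library and 6 to 36 in a KO Tg-SwDI library. It rose with the transgene in KO mice, 5.92-fold with a wide interval of 2.91 to 12 (adjusted p = 0.000546), and all 5 KO Tg-SwDI mice were above all 5 KO Non-Tg mice. In WT mice the fold was 2.25 (1.18 to 4.28, adjusted p = 0.186) and the groups overlapped.

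In all, 5 of the 5 members rose with the transgene in KO mice, where 12.5% of all genes tested were called higher, and 4 of 5 rose in WT mice, where 3.94% were. Every Tg-SwDI mouse was above every Non-Tg mouse for 5 of 5 members in KO mice and 4 of 5 in WT mice, against 8.47% and 5.1% of all genes. No member fell. The choroid plexus genes also differed in KO mice, by a median log2 difference of 3.15 against 0.41 in WT mice. With the choroid plexus level of each library as a covariate the number of members that passed was again 5 in KO and 4 in WT mice.

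**Figure D2:**
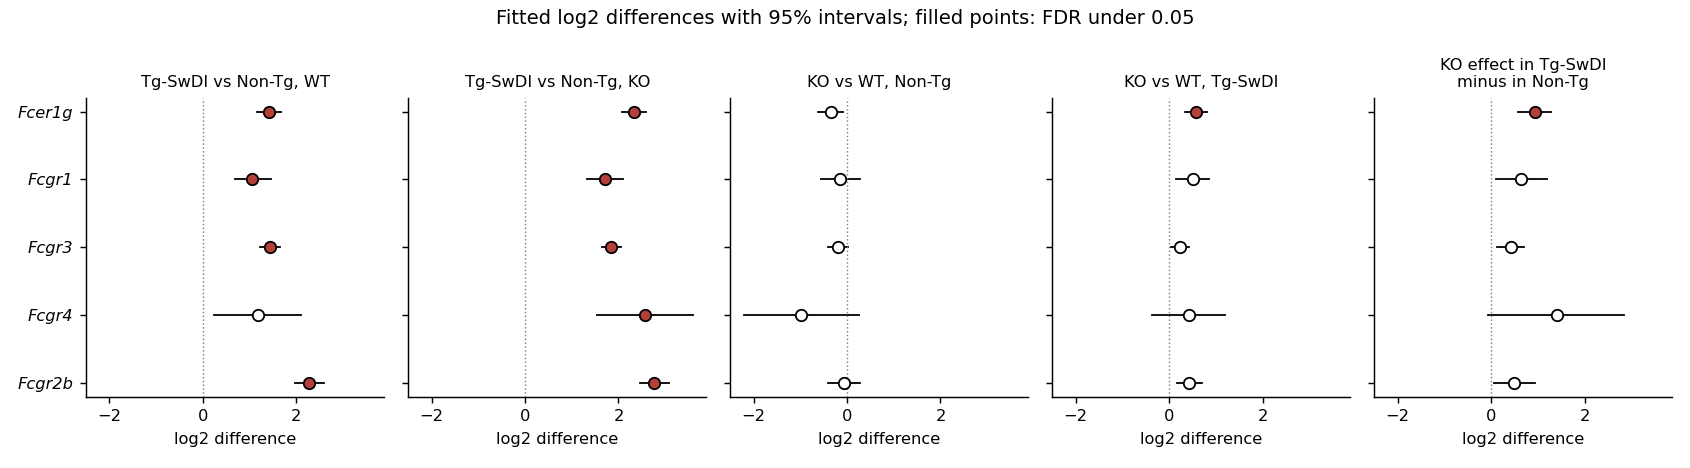
Fitted log2 differences (horizontal axes) of the 5 genes in the 4 pairwise comparisons and, at the right, the difference between the KO effects, with 95% intervals as lines, filled points where the adjusted p was under 0.05. *Fcgr2b* has the largest transgene difference in WT mice, 2.27, and *Fcer1g* is the filled point for KO against WT in Tg-SwDI mice, at 0.57.

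Among Tg-SwDI mice, *Fcer1g* was higher in KO than in WT animals and the receptor genes stayed short of the threshold. *Fcer1g* was 1.49-fold higher in KO Tg-SwDI than in WT Tg-SwDI mice (1.26 to 1.75, log2 difference 0.57, SE 0.11, adjusted p = 0.0132). It was the lone member to pass, 1 of 5, where 1.99% of all genes did and 1.48% were called higher. The difference for *Fcgr2b* was 1.35-fold (1.12 to 1.62, adjusted p = 0.0775), for *Fcgr1* 1.42-fold (1.11 to 1.82, adjusted p = 0.114), for *Fcgr3* 1.17-fold (1.03 to 1.34, adjusted p = 0.185) and for *Fcgr4* 1.34-fold (0.776 to 2.3, adjusted p = 0.584). Every KO mouse was above every WT mouse for *Fcer1g* alone, 1 of 5 members, against 2.04% of all genes. The intervals of *Fcgr1*, *Fcgr2b* and *Fcgr4* include the value of *Fcer1g* and that of *Fcgr3* does not.

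*Fcer1g* was called in this comparison also without KO Tg-SwDI replicate 8 (0.46, adjusted p = 0.0154) and with the choroid plexus covariate (0.58, adjusted p = 0.00696). The call was lost without WT Tg-SwDI replicate 7 (0.53, adjusted p = 0.0501) and when the 2 groups were fitted without the other mice (0.58, adjusted p = 0.0815). A block on the replicate number, which did not pair the mice, also ended the call, and over the 29 alternatives other than that block the adjusted p ranged from 0.000383 to 0.0815. *Fcgr1* passed without KO Tg-SwDI replicate 8 (0.62, adjusted p = 0.0453), and *Fcgr2b* passed without WT Non-Tg replicate 3, without KO Tg-SwDI replicate 5, with DESeq2, with edgeR's exact test or with the choroid plexus covariate, with adjusted p from 0.0274 to 0.172 over the same 29 alternatives. Beside this difference the 8 border macrophage genes had a median log2 difference of 0.52 and the 14 microglia genes one of 0.29 between KO and WT Tg-SwDI mice, and the part of the border macrophage genes in it was not tested.

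In Non-Tg mice none of the 5 members passed between KO and WT, and in the edgeR quasi-likelihood test 0.0% of all genes did. Before adjustment 1302 genes had p under 0.05, DESeq2 called 7 genes and edgeR's exact test called 4, with no member among those of either tool. *Fcer1g* had a fold of 0.783 in KO against WT (0.649 to 0.946, unadjusted p = 0.0135, adjusted p = 0.54), the member nearest to the threshold, and the folds of *Fcgr1*, *Fcgr2b* and *Fcgr3* were 0.905, 0.955 and 0.877. *Fcgr4*, at 0.507, had an interval from 0.217 to 1.19.

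The KO effect on *Fcer1g* differed between transgenic and non-transgenic mice. The difference between the 2 effects was 0.93 on the log2 scale (SE 0.17, adjusted p = 0.0199), and among all genes 0.608% passed this test. It was 0.85 with the choroid plexus covariate (adjusted p = 0.0497) and fell short without KO Non-Tg replicate 7 (0.94, adjusted p = 0.0509), within a range of 0.000153 to 0.0509 over 28 alternatives other than the block. For *Fcgr3*, *Fcgr1*, *Fcgr2b* and *Fcgr4* the corresponding differences were 0.42, 0.65, 0.5 and 1.4 (adjusted p = 0.135, 0.204, 0.224 and 0.305).

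The balance of activating to inhibitory receptor was compared within each mouse, as log2 CPM of each gene minus log2 CPM of *Fcgr2b*, in a family of 36 ratio comparisons tested by an exact two-sided permutation test of 5 against 5 mice, whose smallest possible p is 0.00794. *Fcgr3* over *Fcgr2b* gave log2 ratios of 1.45, 1.8, 1.61, 1.44 and 0.92 in WT mice without the transgene, and 0.61, 0.74, 0.56, 0.42 and 0.62 with it. Among KO mice the ratio was at 0.93, 1.22, 1.64, 1.37 and 1.24 without the transgene and at 0.16, 0.45, 0.34, 0.57 and 0.45 with it. Every transgenic mouse was below every Non-Tg mouse of its genotype. The ratio fell by 0.85 in WT mice and by 0.89 in KO mice on the log2 scale (exact permutation p = 0.00794, adjusted p = 0.0238 in each). As linear ratios the geometric means went from 2.72 to 1.5 in WT and from 2.43 to 1.32 in KO mice.

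*Fcgr1* over *Fcgr2b* fell further, by 1.22 in WT and by 1.07 in KO mice (exact permutation, adjusted p = 0.0238 in each), again with all 5 Tg-SwDI mice below all 5 Non-Tg mice. *Fcer1g* over *Fcgr2b* fell by 0.89 in WT mice (adjusted p = 0.0238, exact permutation test), and in KO mice the difference was -0.42 (adjusted p = 0.118, exact permutation test). Without KO Tg-SwDI replicate 8 the latter was -0.55 and passed (exact permutation, adjusted p = 0.022). *Fcgr4* over *Fcgr2b* fell by 1.14 in WT mice (adjusted p = 0.044), a call lost with a prior count of 0.5 in place of 2 (-0.91, adjusted p = 0.168) and without any of 7 of the 10 mice (WT Non-Tg replicates 2, 4 and 7 and WT Tg-SwDI replicates 3, 5, 6 and 7, adjusted p 0.0571 to 0.0816), both by the exact permutation test. The difference in KO mice was -0.88 (adjusted p = 0.114, exact permutation test). Over 22 alternatives it ranged from -1.05 to -0.56 (adjusted p 0.0612 to 0.369, exact permutation test). A KO Non-Tg library held 2 to 5 *Fcgr4* reads, so the prior count of 2 weighs on this ratio. The fitted log2 rises with the transgene in KO mice, 2.57 for *Fcgr4* and 2.77 for *Fcgr2b*, lay closer together. The ratios of *Fcgr1*, *Fcgr3*, *Fcgr4* and *Fcer1g* to *Fcgr2b* did not pass the exact permutation test between KO and WT mice, with or without the transgene (lowest adjusted p = 0.118, for *Fcgr3* in Tg-SwDI mice, where KO was lower by a log2 difference of -0.19).

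**Figure D3:**
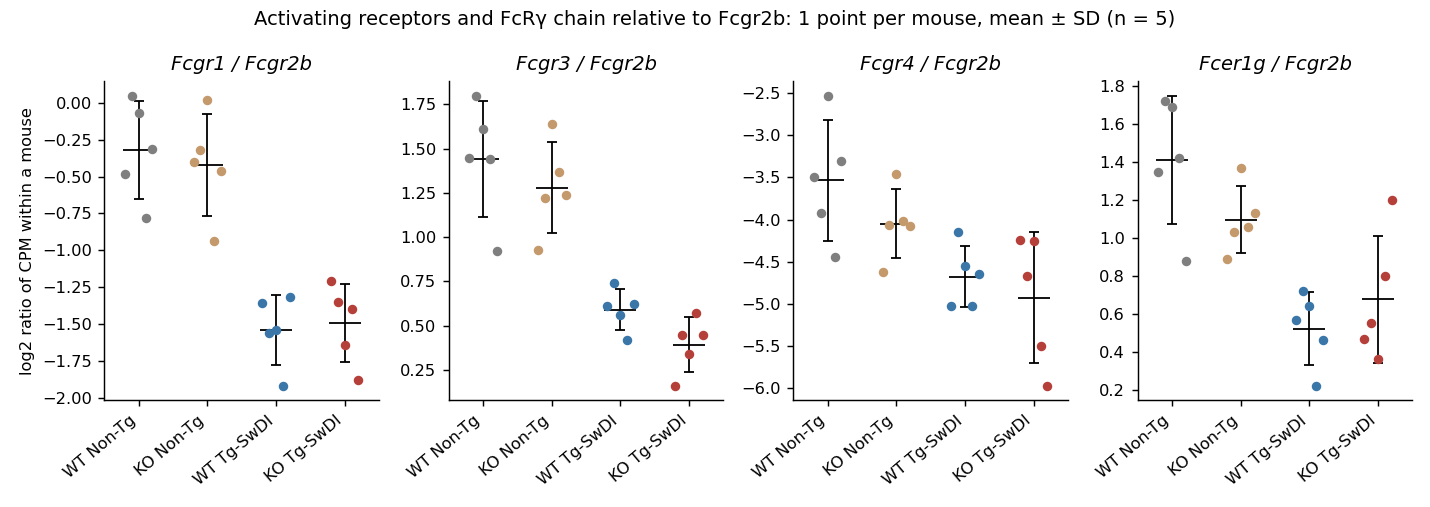
Log2 ratio of CPM (vertical axes) of *Fcgr1*, *Fcgr3*, *Fcgr4* and *Fcer1g* to the inhibitory *Fcgr2b* within each mouse, by group, with the mean and SD of 5 mice. For *Fcgr1* and *Fcgr3* all Tg-SwDI mice sit below all Non-Tg mice of the same miR-34a genotype, with mean log2 ratios for *Fcgr1* of -0.32 and -1.54 in WT mice.

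The members were then set against 14 homeostatic microglia genes, among them *P2ry12*, *Tmem119* and *Cx3cr1*. All 14 rose with the transgene in both genotypes, where 3.94% of all genes in WT and 12.5% in KO mice were called higher. The median log2 difference was 0.78 in WT and 1.26 in KO mice (0.00 over all genes in each). In KO against WT Tg-SwDI mice 5 of the 14 rose, against 1.48% of all genes, led by *Csf1r* (0.56, adjusted p = 0.000673). The summed level of the 14 genes was 1305.8 to 1565.2 CPM in WT Non-Tg, 1278.3 to 1537.7 in KO Non-Tg, 1941.2 to 2294.6 in WT Tg-SwDI and 2104.4 to 2795.9 CPM in KO Tg-SwDI mice. A member's log2 CPM minus the mean log2 CPM of the 14 genes, taken within each mouse, gives its level relative to them. *Fcgr2b* rose relative to the list by 1.51 in WT and by 1.58 in KO mice, *Fcgr3* by 0.66 and 0.69, and *Fcer1g* by 0.63 and 1.16 (exact permutation, adjusted p = 0.0238 for each). *Fcgr1* differed by 0.29 and 0.5 (adjusted p = 0.214 and 0.0612) and *Fcgr4* by 0.37 and 0.7 (adjusted p = 0.48 and 0.231), which did not pass the exact permutation test. With so few *Fcgr4* reads, the prior count also weighs on its values here. Without KO Tg-SwDI replicate 8, *Fcgr1* passed in KO mice (exact permutation, adjusted p = 0.022).

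Relative to these microglia genes *Fcer1g* was at -0.77, -0.66, -0.67, -1.08 and -1.02 in WT Tg-SwDI mice and at -0.65, -0.73, -0.81, -0.64 and -0.03 in KO Tg-SwDI mice. The groups overlapped, and replicate 8 stood far above the other KO Tg-SwDI mice. The difference of 0.27 did not pass (exact permutation, adjusted p = 0.26), nor did that of any other member between KO and WT Tg-SwDI mice, although *Fcgr2b* passed without KO Tg-SwDI replicate 5 (0.17, exact permutation, adjusted p = 0.0238). In Non-Tg mice *Fcer1g* relative to the list was at -1.3, -1.62, -1.38, -1.44 and -1.59 in WT and at -1.88, -1.68, -1.66, -1.63 and -1.81 in KO. All 5 KO mice were below all 5 WT mice, and the ratio fell by 0.27 (exact permutation p = 0.00794, adjusted p = 0.0238). The call was lost without KO Non-Tg replicate 1, 2, 4 or 8 (adjusted p = 0.0612 to 0.0816, exact permutation test), and it was the lone difference between KO and WT mice to pass among the 36 ratio comparisons. The ratio test took no choroid plexus covariate, and choroid plexus RNA was low in all KO Non-Tg mice. In the fit of *Fcer1g* itself, the covariate moved the log2 difference between KO and WT Non-Tg mice from -0.35 to -0.27. The part of choroid plexus RNA in the ratio was not tested.

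**Figure D4:**
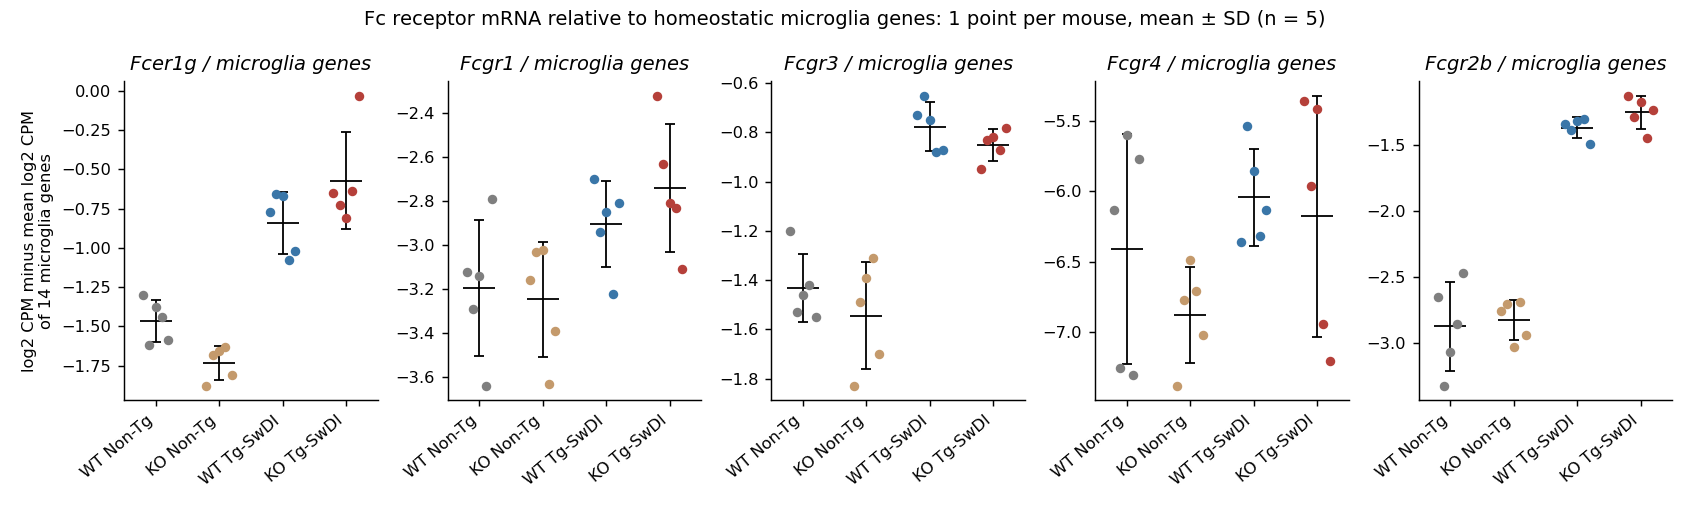
Log2 CPM of each Fc receptor gene minus the mean log2 CPM of 14 homeostatic microglia genes (vertical axes) in each mouse, by group, with the mean and SD of 5 mice. *Fcgr2b* has the widest gap between Tg-SwDI and Non-Tg mice, 1.51 in WT and 1.58 in KO mice, and *Fcer1g* in KO Non-Tg mice sits below every WT Non-Tg mouse.

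Markers of most other immune cells were low. Of 9 neutrophil genes such as *S100a8*, none passed the filter, and their summed level was 0.275 to 1.66 CPM over all mice. Of 8 natural killer cell genes, 6 monocyte genes and 8 T cell genes, 1 each was tested and none was called in any comparison. The other genes of these lists had too few reads to test, so the lack of calls allows no statement on these cells. Border macrophage genes such as *Mrc1* and *Cd163*, all 8 tested, were summed at 7.89 to 21.8 CPM and had none called in any comparison, with a median log2 difference of 0.34 for the transgene in KO and -0.13 in WT mice. Of the 7 mast cell genes, *Kit*, which neurons also express, was tested and was lower with the transgene in KO mice (-0.23), and *Fcer1a*, the IgE-binding chain, had 1 read in all 20 libraries. Of the 15 choroid plexus genes, 13 rose with the transgene in KO mice, where 12.5% of all genes were called higher. None of the 15 passed in WT mice or between KO and WT mice with or without the transgene.

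The pathway below the receptors rose in part. Of 26 genes of Fc receptor signalling, 17 rose and 1 fell with the transgene in KO mice (median log2 difference 0.97), where 20.8% of all genes were called. In WT mice 15 rose (median 0.64), where 4.41% were called, and the median over all genes was 0.00 in each. The kinases *Lyn*, *Fgr* and *Syk*, which phosphorylate the ITAM or dock on it, rose in both genotypes, *Syk* by a log2 difference of 0.68 in WT mice (adjusted p = 0.000524) and 0.62 in KO mice (adjusted p = 0.000664). *Fgr* rose by 2.76 and 4.45 from 0.239 and 0.124 CPM. *Fyn* and *Src*, which neurons also express, were at -0.01 and 0.01 in WT and 0.01 and -0.08 in KO mice and did not pass.

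Among genes that restrain the pathway, the results were mixed. *Inpp5d*, which encodes SHIP1, the phosphatase that FcγRIIB recruits, rose by 1.03 in WT (adjusted p = 1.15e-08) and 1.26 in KO mice (adjusted p = 1.05e-10). *Ptpn6*, which encodes the tyrosine phosphatase SHP-1, rose by 1.55 and 2.3 (adjusted p = 6.04e-08 and 3.13e-11). *Rac2*, a GTPase of phagocytes that is not among these restraining genes, rose by 0.97 and 1.86 (adjusted p = 2.67e-06 and 1.9e-11). *Cbl*, a ubiquitin ligase that restrains ITAM signalling, was the member of the list that fell, by 0.15 in KO mice (adjusted p = 0.0429), and was at 0.09 in WT mice (adjusted p = 0.44). *Csk*, the kinase that holds Src family kinases inactive, was at 0.05 in WT mice (adjusted p = 0.819) and rose by 0.31 in KO mice (adjusted p = 0.00176). Between KO and WT Tg-SwDI mice none of the 26 passed (1.99% of all genes), with *Rac2* the nearest (0.42, adjusted p = 0.0528). *Rac2* was also the 1 gene of the list whose KO effect differed with the transgene (0.88, adjusted p = 0.0199).

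**Figure D5:**
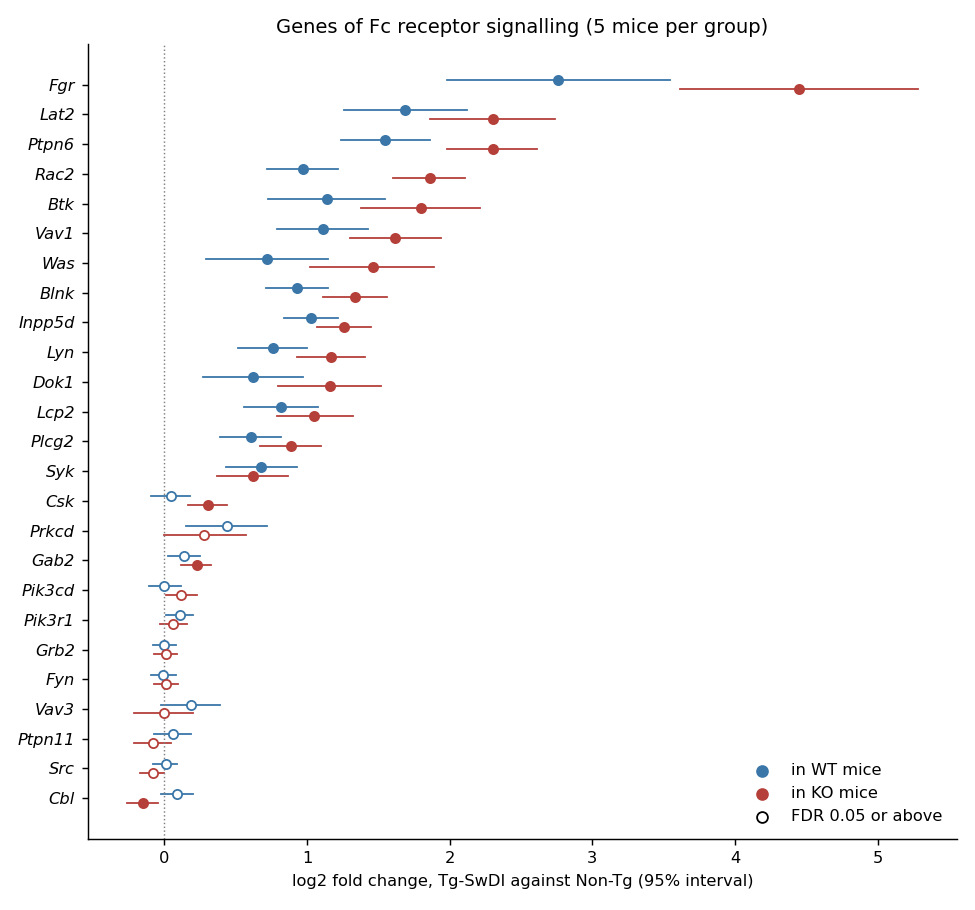
Log2 fold change of Tg-SwDI against Non-Tg mice (horizontal axis) for the genes of Fc receptor signalling reported here in WT (blue) and KO mice (red), with 95% intervals as lines and open points where the adjusted p was 0.05 or above. *Fgr*, *Lat2*, *Ptpn6* and *Rac2* lead in KO mice, and *Fyn* and *Src* lie near 0.

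Among other genes tied to the receptors, *Tyrobp*, the ITAM adaptor DAP12 that resembles the FcRγ chain, rose by 2.29 in WT (adjusted p = 7.66e-14) and 3.03 in KO mice (adjusted p = 2.78e-16). It was called between KO and WT Tg-SwDI mice (0.4, adjusted p = 0.0229) and its KO effect differed with the transgene (0.74, adjusted p = 0.0199), as was found for *Fcer1g*. Of 13 genes for ITAM adaptors and receptors that use the FcRγ chain, 4 were tested. *Tyrobp*, *Cd300c2* and *Cd300lb* rose with the transgene in each genotype, where 3.94% of all genes in WT and 12.5% in KO mice were called higher. Of 13 other immunoglobulin receptor genes, 6 were tested. *Fcrls*, an Fc receptor-like gene of microglia, rose by 1.57 in WT (adjusted p = 5.98e-08) and 1.91 in KO mice (adjusted p = 1.19e-09). *Trim21*, the cytosolic antibody receptor, rose in KO mice (0.94, adjusted p = 0.00113), and *Fcgrt*, the neonatal Fc receptor that carries IgG across the vessel wall, was at -0.07 in WT (adjusted p = 0.834) and 0.3 in KO mice (adjusted p = 0.0604).

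Of 8 regulators of Fc receptor genes, 7 rose with the transgene in KO mice, where 12.5% of all genes were called higher, and 5 in WT mice, where 3.94% were. *Spi1*, which encodes PU.1, rose by 0.91 in WT (adjusted p = 0.00033) and 1.66 in KO mice (adjusted p = 1.55e-08), and *Irf8*, its partner in myeloid cells, rose by 1.65 and 2.31 (adjusted p = 6.18e-07 and 2.07e-09). *C5ar1*, the complement receptor that tunes the balance of Fc receptors, rose by 0.84 and 1.23 (adjusted p = 0.0467 and 0.00051). None of the 8 passed between KO and WT mice with or without the transgene. *Spi1* was the nearest in Tg-SwDI mice (0.52, adjusted p = 0.0633).

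The immunoglobulin and B-lineage genes include those of IgG, the ligand of the receptors. The summed level of the list was 21.5 to 53.4 CPM in WT Non-Tg, 23.0 to 33.7 in KO Non-Tg, 24.1 to 99.3 in WT Tg-SwDI and 32.6 to 132 CPM in KO Tg-SwDI mice. Of these 16 genes, 5 were tested. *Ighm* and *Ighd*, the constant regions of IgM and IgD, rose with the transgene in KO mice (1.13, adjusted p = 0.0225, and 1.44, adjusted p = 0.000596). In that comparison 12.5% of all genes were called higher, and none of the 5 passed in the other comparisons. *Ighg2c* was the lone IgG heavy chain to be tested, with a mean of 0.755 to 1.27 CPM over the groups, and was called in no comparison. *Igkc*, the kappa light chain, had SDs of 5.63 to 15.3 CPM around means of 4.4 to 8.6 CPM in 3 groups and 1.02 around 1.19 CPM in KO Non-Tg mice.

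The genes whose pattern over the 20 mice was most like that of each member were found by the root mean square difference of centred log2 CPM among 14408 genes. *Fcer1g* was nearest to *Cd37* (0.14) and *C1qb* (0.14), a chain of the complement protein that also binds immune complexes, with *C1qc* at rank 5 (0.19). *Fcgr3* was nearest to *Cd53* (0.12). *Fcgr2b* was nearest to *Ly86* (0.22), *Cd14* (0.23) and *Tyrobp* (0.23), and the other members were not among its first 45, *Fcer1g* being at rank 46 (0.43). *Fcgr1* was nearest to *Dock2*, *Naip2* and *Tgfbr2* (0.22 each), and *Fcgr4* was nearest to *H2-DMb1* (0.43), with the noise of its low counts. *Fcer1g* and *Fcgr3* differed from each other by 0.23, rank 29 from *Fcgr3* and rank 10 from *Fcer1g*. These 20 points share the transgene, so the likeness is a description.

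The genes around the members were counted by position. Within 500 kb of the 4 members there, 30 other genes were tested, of which 4 were called with the transgene in WT mice, where 4.41% of all genes were, and 7 in KO mice, where 20.8% were, with none called in the other comparisons. Those called in both were the leukocyte genes *Cd48* (1.92 in WT, 2.2 in KO), *Ly9* (2.49 and 3.84) and *Arhgap30* (0.99 and 1.11), and *F11r* (0.57 and 1.34), a junction protein gene. The 3 called in KO mice alone were *Cfap126* (1.02), *Sdhc* (0.17) and *Nos1ap* (-0.26). The median difference of the 30 genes was -0.03 in WT and 0.06 in KO mice. Around *Fcgr1*, 36 genes were tested, of which 1 was called with the transgene in WT and 5 in KO mice. Between KO and WT Tg-SwDI mice, where 1.99% of all genes were called, 2 were, the clock gene *Ciart* (0.8) and *Plekho1* (0.34). Both were also called for the difference between KO effects (0.7 and 0.48), against 0.608% of all genes. *Ciart* was the gene called in WT mice (-0.31), and those called in KO mice were *Ciart* (0.4), *Plekho1* (0.48), *BC028528*, *Car14* and *Hist2h2aa2*.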

How the data were processed

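Stranded mRNA libraries were sequenced, and per the labels and the methods of the study the authors aligned the reads to mm10 with STAR and counted them per Ensembl gene with featureCounts; versions, the strand setting and the treatment of reads that map to several genes are not given in the sources used here. The deposited values are raw counts, 1 column per mouse. They were tested in edgeR 4.0.16 (R 4.3.3) with TMM factors, filterByExpr (minimum count 10, minimum total 15) and 1 robust quasi-likelihood fit with a mean per group (16 residual degrees of freedom). P-values were adjusted by Benjamini-Hochberg over all 16107 genes and called at an FDR of 0.05. CPM are TMM-normalised, and log2 ratios use a prior count of 2. Of 39056 gene identifiers, 38872 matched GENCODE vM21. The scripts were tested on simulated data. Alternatives were DESeq2 1.42.0, edgeR's exact test, no or a stricter filter (mean CPM of 1), other scaling and a replicate block. Further alternatives were a choroid plexus covariate, removal of each library's trend with GC content and exonic length, and each mouse left out. For the difference between KO effects, edgeR's likelihood ratio test took the place of the exact test. From each list up to 4 genes per comparison were named by lowest adjusted p, and *Fgr*, *Syk*, *Fyn*, *Src*, *Fcer1a* and *C5ar1* were named after their values were seen. Some genes that the lists count or the rules select are not reported here. The members and lists were chosen with earlier results of these data known.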

Additional observations from a re-analysis of the deposited data

Results flagged for a closer look

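Of 56 groups of 5 values examined for a mouse apart from the rest, 2 held one, and chance gives about 1 in 20. *Fcgr3* in WT Non-Tg replicate 2 was at 15.9 CPM, with the other 4 mice at 10.3 to 11.5. The log2 ratio of *Fcer1g* to the microglia genes in KO Tg-SwDI replicate 8 was -0.03, with the other 4 mice at -0.81 to -0.64. The same mouse had the lowest normalisation factor, 0.9013, the highest *Fcer1g* (61.4 CPM) and the lowest *Fcgr1* (7.21 CPM) and *Fcgr4* (0.33 CPM) of its group. The difference between the KO effects on *Fcer1g* in Tg-SwDI and Non-Tg mice, 0.93 on the log2 scale, passed the test of the difference itself (adjusted p = 0.0199, edgeR quasi-likelihood test).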

How the results depend on the processing

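The 4 members called with the transgene for WT animals and the 0 called in Non-Tg mice held in number under all alternatives. The 5 called for KO animals became 4 of the 4 tested with a minimum mean CPM of 1 or with the compared groups fitted alone, where *Fcgr4* did not pass the filter, and were 5 under the others. The 13 ratios past the threshold ranged from 12 to 15. Between KO and WT Tg-SwDI mice the count of 1 became 2 with DESeq2, edgeR's exact test or the choroid plexus covariate, 0 with the 2 groups fitted alone and 0 with the replicate block, and ranged from 0 (without WT Tg-SwDI replicate 7) to 2 (without WT Non-Tg replicate 3, KO Tg-SwDI replicate 5 or KO Tg-SwDI replicate 8) when each mouse was left out. The count for the difference between KO effects ranged from 0 (without KO Non-Tg replicate 7) to 1. The cause of these changes was not tested.

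The replicate numbers of the labels did not pair the mice: of 16 pairs with the same number, 3 had a correlation of deviations over 0.1, with a median of -0.061. With the replicate block, *Fcer1g* between KO and WT Tg-SwDI mice was at 0.43 (adjusted p = 0.191), and the genes called in that comparison went from 320 to 8 and those for the difference between KO effects from 98 to 38. It changed the number of members called in no other comparison.

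Differences near 0 changed sign. *Fcgr2b* between KO and WT Non-Tg mice, -0.07, was 0.0 with the choroid plexus covariate and -0.19 to 0.06 when a mouse was left out. When a mouse was left out, the KO minus WT log2 ratios in Non-Tg mice ranged from -0.06 to 0.15 for *Fcgr2b* to microglia genes, -0.16 to 0.05 for *Fcgr1* to microglia genes and -0.22 to 0.03 for *Fcgr1* to *Fcgr2b*. In Tg-SwDI mice they ranged from -0.05 to 0.14 for *Fcgr1* to *Fcgr2b*, -0.34 to 0.12 for *Fcgr4* to microglia genes and -0.42 to 0.01 for *Fcgr4* to *Fcgr2b*.

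Over all genes, DESeq2 and the exact test called 733 and 565 genes between KO and WT Tg-SwDI mice, against 320. For the difference between KO effects DESeq2 called 482 genes and edgeR's likelihood ratio test 329, against 98. Without scaling factors the calls for KO against WT among transgenic mice numbered 102 higher and 115 lower, against 239 and 81, those with the transgene in KO mice 1675 and 1792, against 2013 and 1338, and those for the difference between KO effects 59, and the 5 members were higher in KO Tg-SwDI mice under that setting too. With 2 to 36 reads in a library, *Fcgr4* allows no firm statement in WT mice.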
